A study of Mus musculus with 8 samples.

Results

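The genes described here are 10 markers of alternative macrophage activation, namely Chil3, Mrc1, Retnla, Clec10a, Pparg, Egr2, Tgm2, Pdcd1lg2, Ccl24 and Ccl17. They were chosen as known interleukin 4 (IL-4) response genes, and they are 10 of the 53342 genes in the count tables. Wild-type C57BL/6 mice 8 weeks old were the source. Macrophages were sorted from their hearts 3 days after an infarction by the surface level of Ly6C and then cultured for 24 hours. The 4 groups, with 2 libraries each numbered 1 and 2, were Ly6Clo cells given interleukin 21 (IL-21, a T cell cytokine) at 100 ng/mL, Ly6Clo cells cultured without it, Ly6Chi cells given IL-21, and Ly6Chi cells cultured without it. All groups share the wild-type genotype, the infarction and the culture, and uncultured cells and cells lacking the IL-21 receptor were not analysed here. IL-4 is not named among the additions to the medium. Whether libraries 1 and 2 of a group stem from different animals or cultures is not given, so p-values measure only the spread between these libraries, which may be technical.

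Alternative activation is the response of macrophages to IL-4 and interleukin 13. Both cytokines bind receptors that contain the IL-4 receptor alpha chain, and Janus kinases at the receptor then activate the transcription factor STAT6, which induces lectins, chitinase-like proteins, chemokines and nuclear factors. In mice Chil3, Retnla, Mrc1 and Arg1 are the usual markers of this state, and in the healing heart macrophages that carry such markers are linked with tissue repair. Several of the markers also respond to other signals, and Ly6Chi monocytes express Chil3.

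STAT proteins bind palindromes of TTC and GAA, and STAT6 prefers 4 bases between them (TTCNNNNGAA) while other STAT proteins prefer 3 (TTCNNNGAA). Because each motif reads alike on both strands, 1 search covered both. In the 250 bases before the annotated start (RefSeq, GRCm38.p6), TTCNNNNGAA was present in 5.85% of 32851 mouse promoters and TTCNNNGAA in 7.02%. A promoter was held for 7 of the 10 genes (none for Clec10a, Tgm2 and Ccl24), 13 promoters in all, and 4 of these contained a motif. The promoters below, with motifs in capitals, are those 4 and that of Mrc1, which had neither motif, shown to set the sequences beside the measured levels. They lie at chr16:48842359-48842608 (plus strand), chr8:94810203-94810452 (plus strand), chr19:29410669-29410918 (plus strand), chr3:106167565-106167814 (minus strand) and chr2:14229164-14229413 (plus strand), and each is written 5′ to 3′ on the gene's strand.
Retnla: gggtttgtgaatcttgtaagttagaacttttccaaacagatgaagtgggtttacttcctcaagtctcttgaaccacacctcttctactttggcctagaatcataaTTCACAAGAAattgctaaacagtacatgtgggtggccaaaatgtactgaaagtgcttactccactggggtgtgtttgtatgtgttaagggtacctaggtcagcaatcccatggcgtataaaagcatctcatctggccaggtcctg
Ccl17: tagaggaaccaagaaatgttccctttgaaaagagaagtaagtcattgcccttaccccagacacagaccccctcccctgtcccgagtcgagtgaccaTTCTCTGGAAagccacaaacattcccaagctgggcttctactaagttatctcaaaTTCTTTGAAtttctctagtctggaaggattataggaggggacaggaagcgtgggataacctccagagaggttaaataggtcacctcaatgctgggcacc
Pdcd1lg2: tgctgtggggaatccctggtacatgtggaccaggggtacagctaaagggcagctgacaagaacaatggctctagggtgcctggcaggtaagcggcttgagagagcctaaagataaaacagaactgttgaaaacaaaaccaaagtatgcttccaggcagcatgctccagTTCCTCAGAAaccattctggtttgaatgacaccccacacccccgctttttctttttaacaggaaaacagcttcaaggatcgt
Chil3: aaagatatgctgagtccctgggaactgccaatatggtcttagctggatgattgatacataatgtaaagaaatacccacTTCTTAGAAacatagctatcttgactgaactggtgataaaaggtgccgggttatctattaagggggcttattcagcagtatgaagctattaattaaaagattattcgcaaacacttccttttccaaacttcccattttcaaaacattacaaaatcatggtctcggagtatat
Mrc1: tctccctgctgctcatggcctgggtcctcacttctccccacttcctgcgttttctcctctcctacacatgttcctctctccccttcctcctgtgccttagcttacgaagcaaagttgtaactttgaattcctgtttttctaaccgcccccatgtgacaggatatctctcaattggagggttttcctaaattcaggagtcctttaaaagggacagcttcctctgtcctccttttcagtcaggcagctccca
TTCNNNNGAA began 145 bases before the start in Retnla, 154 in Ccl17 and 82 in Pdcd1lg2. TTCNNNGAA began 172 bases before the start in Chil3, and Ccl17 held it as well without overlap between its motifs. The 3 promoters of Pparg and the 5 of Egr2 contained neither motif. A match is a run of letters and was not tested for binding.

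Total deposited counts were 224329 to 483593 per library, and 3 counts corresponded to 6.58 to 14.9 CPM (counts scaled to library size by TMM). Of 10 macrophage markers 9 were counted in each group, and the defining marker Itgam was listed at 0 in all 8 libraries, so a value of 0 is given below as listed at 0. Ly6c2, which encodes the sorted antigen, was lower in Ly6Clo by 3.19 on the log2 scale (log2 fold change -3.19, SE 0.30, edgeR adjusted p 0.000848). Summed markers reached at most 14.9 CPM for T and B cells, 32.9 for eosinophils and basophils, 67.9 for heart muscle, 160 for fibroblasts and 338 for endothelial cells. The endothelial sum was nearly all Kdr, at 58.1 to 338 CPM, with Pecam1 at most at 7.99 CPM and Cdh5 at most at 4.39 CPM. Ccr3 was the 1 eosinophil and basophil marker counted, and the 3 platelet markers were listed at 0. Libraries of the same number deviated from their group means together, and 8.24% of the 5257 genes tested differed between numbers 2 and 1 in a fit that held the number as a block. These are bulk libraries, so fewer cells of one type and less RNA per cell cannot be told apart.

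Of the 10 genes, 6 had counts in all 8 libraries and passed the filter on low counts, and 4 did not. Chil3, Mrc1, Clec10a, Pparg, Egr2 and Tgm2 were tested. Retnla, which encodes the secreted protein Relm-alpha, and Ccl17, a chemokine that attracts T cells through CCR4, were listed at 0 in all 8 libraries. A total of 0 allows up to 3 counts, or 1.29 CPM over the 8 libraries together. Pdcd1lg2, which encodes the PD-1 ligand PD-L2, had 2 and 1 counts in Ly6Clo with IL-21 and 1 and 0 in Ly6Clo without, and 0 and 2 in Ly6Chi with IL-21 and 1 and 0 in Ly6Chi without. Ccl24, the eosinophil-attracting chemokine eotaxin-2, had 0 and 0 counts in Ly6Clo with IL-21 and 1 and 2 in Ly6Clo without, and 0 and 1 in Ly6Chi with IL-21 and 0 and 0 in Ly6Chi without. Both lie at or below 3 counts in every library, so their groups could not be compared at this depth. The 3 genes whose promoters held TTCNNNNGAA (sequences above) are thus all among the 4 that were not tested. The tested genes Clec10a and Tgm2 had no promoter to search, so whether theirs hold the motif is not known here. Relatives of these genes were as sparse. Chil4, the near copy of Chil3, was listed at 0 throughout, Mgl2, the neighbour and near copy of Clec10a, had 2 counts in all, and Irf4, a nuclear factor of the STAT6 response, had at most 2 counts in a library.

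**Figure D1:**
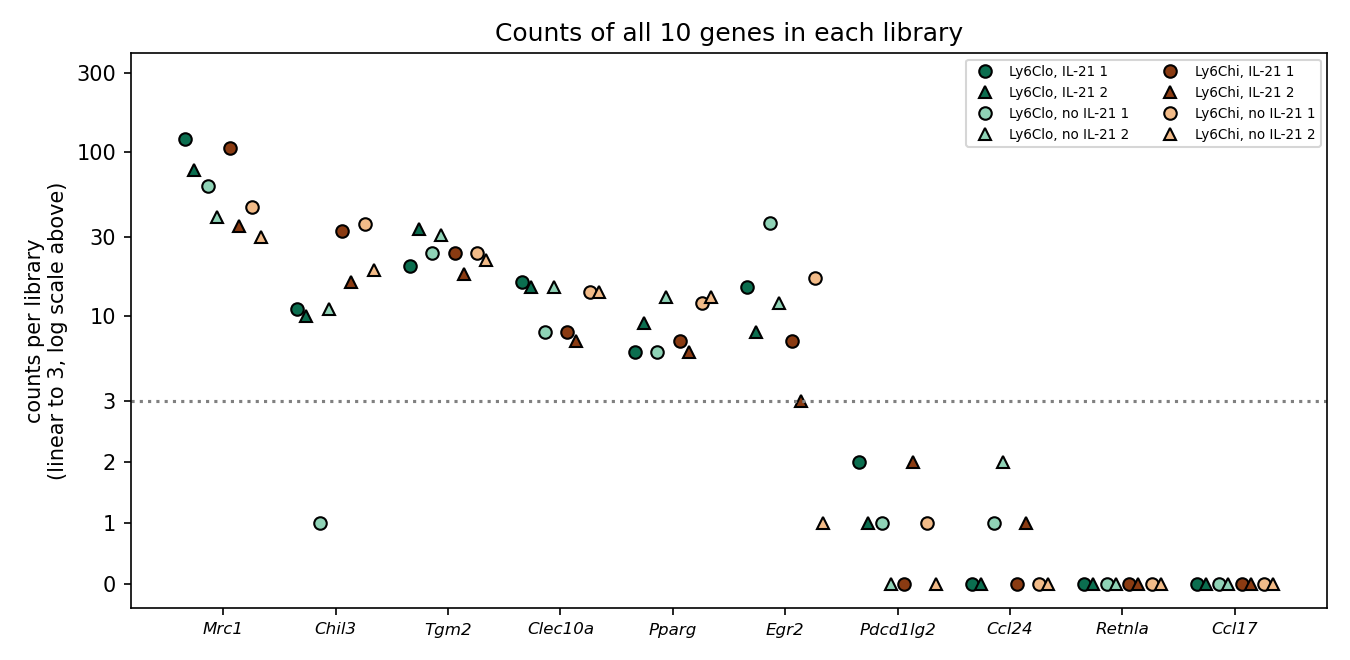
Rounded counts per library (linear up to 3, logarithmic above) of all 10 genes, with Ly6Clo in green and Ly6Chi in brown, IL-21 in the dark shades, and circles and triangles for numbers 1 and 2. Points below the dotted line have fewer than 3 counts, and Retnla and Ccl17 sit at 0 in all 8 libraries.

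The first comparison asked how the sorted subsets differ in these genes, over 4 Ly6Clo and 4 Ly6Chi libraries. Chil3, which encodes the secreted chitinase-like protein Ym1 (ENSMUSG00000040809, GRCm38 chromosome 3, 106147554 to 106167564, minus strand), was the 1 gene that passed. Its level was 44.0 and 24.6 CPM in Ly6Clo with IL-21 and 4.15 and 24.1 CPM in Ly6Clo without, against 124 and 79.4 CPM in Ly6Chi with IL-21 and 148 and 72.4 CPM in Ly6Chi without. Every Ly6Clo library lay below every Ly6Chi library, and the lowest value rests on 1 count in the first Ly6Clo library without IL-21. The mean was 24.2 ± 16.3 CPM in Ly6Clo and 106 ± 36.1 CPM in Ly6Chi (SD, n = 4 each). With the stimulations averaged, Chil3 was lower in Ly6Clo by a log2 fold change of -2.17 (SE 0.38, edgeR quasi-likelihood test, Benjamini-Hochberg adjusted p 0.0351), which is 4.49-fold lower. It was the 1 of 6 tested genes that passed in this direction, where 0.0951% of all genes tested passed, and 2.76% of all genes had all 4 Ly6Clo libraries below all 4 Ly6Chi libraries.

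The Chil3 difference had the same direction with and without IL-21. Without IL-21 the log2 fold change of Ly6Clo over Ly6Chi was -2.68 (SE 0.55, edgeR adjusted p 0.226), which missed the threshold. In the fit that holds the replicate number as a block the value was -2.55 (SE 0.46, edgeR adjusted p 0.00494), past the threshold, as for 0.418% of all genes in this direction. Beside these, 0.038% of all genes passed as lower without the block. With IL-21 the log2 fold change was -1.66 (SE 0.51, edgeR adjusted p 0.831; 0.019% of all genes passed as lower), and -1.59 with the block (SE 0.42, edgeR adjusted p 0.0759; 0.342% passed). The block call without IL-21 was lost without the first unstimulated library of either subset, at -1.68 (Ly6Clo left out, edgeR adjusted p 0.531) and -2.18 (Ly6Chi left out, 0.179). Leaving out the second unstimulated Ly6Clo library, so that the one with 1 count stood alone, moved it to -4.93 (edgeR adjusted p 0.0113), and to -4.57 without the block (edgeR adjusted p 0.138). Within a number the log2 difference was -1.37 and -1.45 between libraries with IL-21 and -3.81 and -1.35 between those without, all 4 below 0, and the value of -3.81 rests on the library with 1 count. The averaged call was kept in 3 of the 8 fits that left out 1 library. It was lost without the first (-1.98, edgeR adjusted p 0.233) or second (-2.30, 0.0587) Ly6Chi library with IL-21, the first Ly6Chi library without IL-21 (-1.87, 0.132), the second Ly6Clo library with IL-21 (-1.95, 0.0947) and the first Ly6Clo library without IL-21 (-1.91, 0.0562). Leaving out the second unstimulated Ly6Clo library, the log2 fold change was -3.11. With the block the averaged edgeR adjusted p was 0.000233, in a fit where 1.41% of all genes passed as lower, and the call was kept in 8 of 8 such fits, at -3.24 to -1.62.

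The summed levels of 2 marker lists were also lower in Ly6Clo. All 5 markers of Ly6Chi monocytes were counted, and their summed level was 174 to 236 CPM in Ly6Clo and 702 to 956 CPM in Ly6Chi. Of this sum at most 74.6 CPM in Ly6Clo and 372 to 546 CPM in Ly6Chi were Ly6c2, which encodes the antigen used for the sort. Without Ly6c2 the sums overlapped, at 103 to 224 CPM in Ly6Clo and 156 to 477 CPM in Ly6Chi. Ccr2, the monocyte chemokine receptor, overlapped as well, at 26.3 to 168 CPM in Ly6Clo and 36.9 to 164 CPM in Ly6Chi (log2 fold change -0.25, SE 0.61, edgeR adjusted p 0.965). Plac8 (-2.77, SE 0.81, edgeR adjusted p 0.495) and the versican gene Vcan (-1.51, SE 0.36, edgeR adjusted p 0.192) did not pass. Of 8 neutrophil markers 6 were counted, with a sum of 652 to 1270 CPM in Ly6Clo and 1410 to 2350 CPM in Ly6Chi, of which Mmp8, a collagenase, made up 538 to 1200 CPM in Ly6Clo and 1280 to 2150 CPM in Ly6Chi. Without Mmp8 the neutrophil sums overlapped, at 70.6 to 145 CPM in Ly6Clo and 114 to 196 CPM in Ly6Chi. The neutrophil genes Ly6g and Retnlg were listed at 0 in all 8 libraries. The part of these cells in the Chil3 difference was not tested. Of the 50-base runs in the last 500 bases of the Chil3 transcripts, 15.4% also occur in Chil4 or Gm6522, and Chil4 had no counts.

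**Figure D2:**
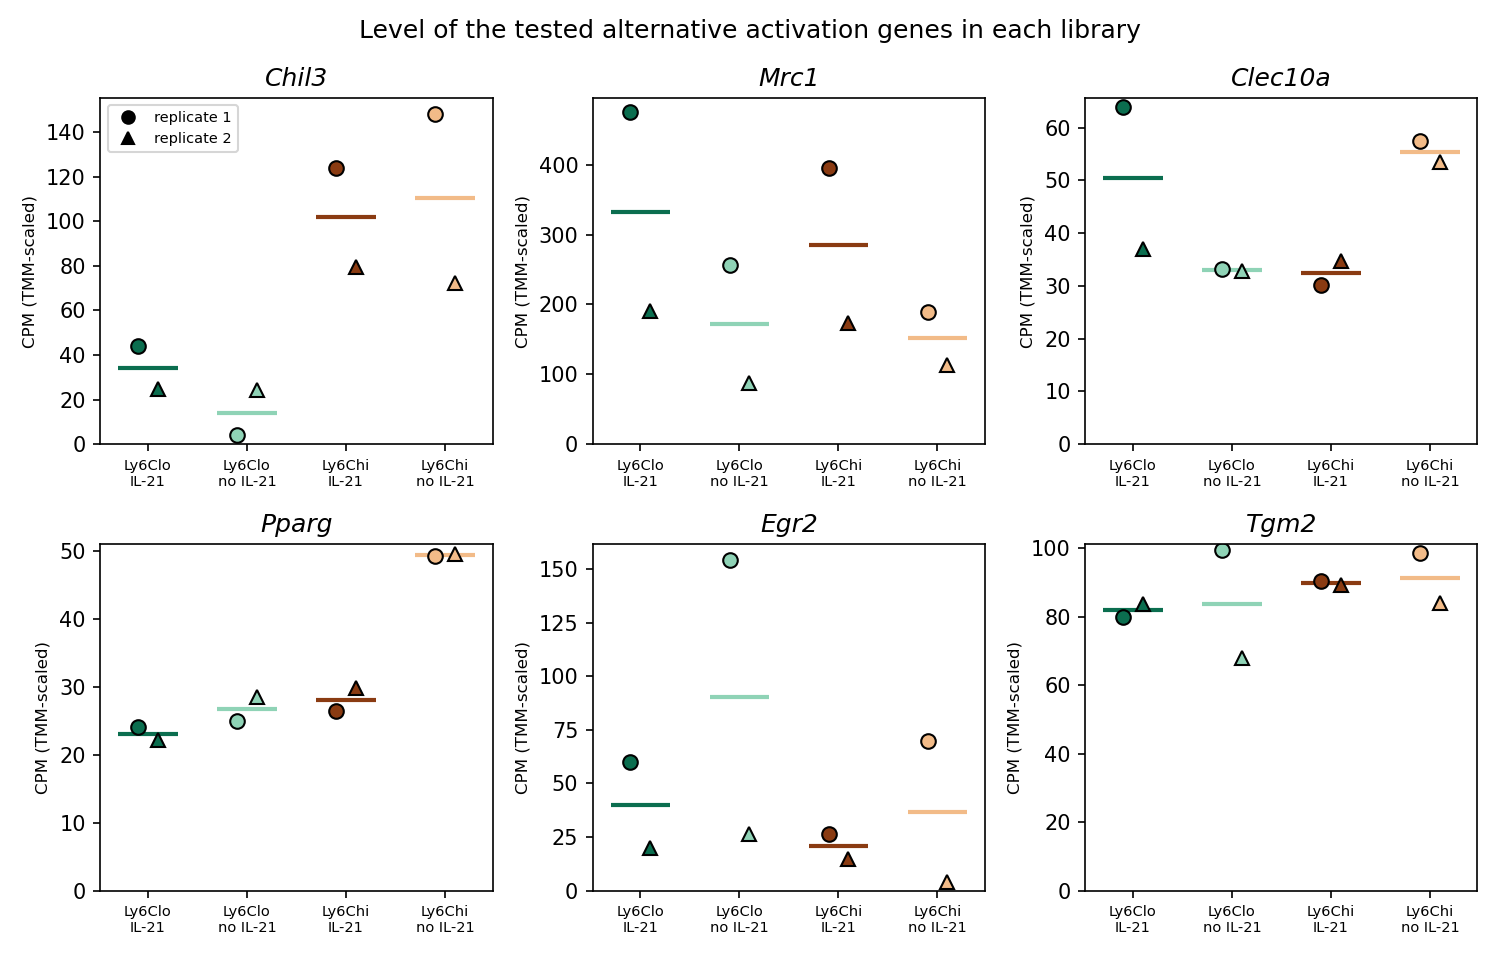
CPM (TMM-scaled, linear axes from 0) of the 6 tested genes in each of the 8 libraries, with circles for number 1, triangles for number 2 and bars at the mean of the 2 libraries of a group. Chil3 lies at 4.15 to 44.0 CPM in the Ly6Clo and at 72.4 to 148 CPM in the Ly6Chi libraries, and Mrc1 is higher in number 1 than in number 2 in all 4 groups.

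The other 5 tested genes did not pass for Ly6Clo against Ly6Chi. Egr2, which encodes a zinc finger factor that STAT6 induces and that maintains the alternative programme, was higher in Ly6Clo in 4 of 4 pairs of one number, by 0.29 to 1.63 on the log2 scale, as were 10.9% of all genes. Its averaged log2 fold change was 0.95 (SE 0.98, edgeR adjusted p 0.892), and 1.17 with the block (SE 0.36, edgeR adjusted p 0.0847). Pparg, the nuclear receptor of fatty acids, was lower in Ly6Clo in 4 of 4 pairs, by -0.82 to -0.11, as were 11.0% of all genes, with an averaged log2 fold change of -0.57 (SE 0.37, edgeR adjusted p 0.765). For Mrc1 the averaged log2 fold change was 0.14 (SE 0.51), for Clec10a -0.08 (SE 0.32) and for Tgm2 -0.15 (SE 0.23), with edgeR adjusted p values of 0.936 to 0.974.

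The second comparison asked what IL-21 did to these genes, in each subset and averaged over both. In the fits without the block, by edgeR or by DESeq2, none of the 6 tested genes passed in Ly6Clo, in Ly6Chi or averaged. There 0 had an unadjusted edgeR p under 0.05. Of all genes tested 0.133% passed in Ly6Clo, 0.019% in Ly6Chi and 0.171% averaged.

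Mrc1, which encodes the mannose receptor CD206 (ENSMUSG00000026712, chromosome 2, 14229392 to 14332057, plus strand, with Mir511 inside it), was higher with IL-21 in every pair of libraries of one number. Its level was 476 and 190 CPM in Ly6Clo with IL-21, against 257 and 87.8 CPM in Ly6Clo without. In Ly6Chi it was 395 and 174 CPM with IL-21, against 189 and 114 CPM without. The libraries numbered 1 were the higher in each group, so the 4 stimulated and 4 unstimulated libraries overlapped, at 309 ± 150 CPM and 162 ± 76.6 CPM (SD, n = 4 each). Within a number the log2 difference was 0.87 and 1.05 in Ly6Clo and 1.04 and 0.57 in Ly6Chi, and 9.89% of all genes were likewise higher in 4 of 4 pairs.

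Averaged over the subsets, the log2 fold change of Mrc1 was 0.96 (SE 0.51, edgeR adjusted p 1.0), a 1.95-fold difference that missed the threshold. In the block fit Mrc1 rose with IL-21 by 0.93 (SE 0.16, edgeR adjusted p 0.000988), in a fit where 0.989% of all genes passed in this direction. In Ly6Clo the log2 fold change was 0.99 (SE 0.71, edgeR adjusted p 1.0), and 0.98 in the block fit (SE 0.21, edgeR adjusted p 0.0197; 0.514% of all genes passed as higher). In Ly6Chi it was 0.93 (SE 0.74, edgeR adjusted p 1.0), and 0.87 with the block (SE 0.24, edgeR adjusted p 0.18). The difference between the subsets was 0.06 (SE 1.03, edgeR adjusted p 0.999), so a difference in the Mrc1 response was not shown. Without the block the Mrc1 values depended on single libraries, and Mrc1 passed in none of the 8 fits that left out 1. Its averaged value was 0.58 when the first stimulated Ly6Clo library was left out and 1.41 when the first unstimulated one was. In Ly6Clo these same fits gave 0.22 and 1.88, and in Ly6Chi leaving out the first or the second stimulated library gave 0.20 and 1.39. The averaged call with the block was kept in 7 of 8 fits that left out 1 library and was lost without the first Ly6Chi library without IL-21 (0.74, edgeR adjusted p 0.066). The Ly6Clo call with the block was lost when any 1 of the 4 Ly6Clo libraries was left out, with edgeR adjusted p values of 0.158 to 0.506.

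Mrc1 and Egr2 also differed between the replicate numbers. Number 2 was lower than number 1 by a log2 fold change of -1.23 (SE 0.16, edgeR adjusted p 6.14e-06) for Mrc1 and -2.24 (SE 0.35, edgeR adjusted p 6.55e-05) for Egr2, and 3.63% of all genes passed in this direction. For Chil3 it was -0.59 (SE 0.30, edgeR adjusted p 0.247). The summed level of the 10 macrophage markers also moved with the number, at 8380 to 9320 CPM in the libraries numbered 2 and 10300 to 12700 CPM in those numbered 1, and its part in these differences was not tested. The gap lay in Lyz2, the lysozyme gene, with 2490 to 3440 CPM in number 2 and 4240 to 6780 CPM in number 1. Without Lyz2 the sums overlapped, at 5320 to 6500 CPM in number 2 and 5620 to 6370 CPM in number 1, and Fcgr1, an IgG receptor gene in the same list, was higher in number 2 in all 4 groups, at 709 to 1050 CPM in number 2 and 502 to 653 CPM in number 1. What the number marks is not given.

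**Figure D3:**
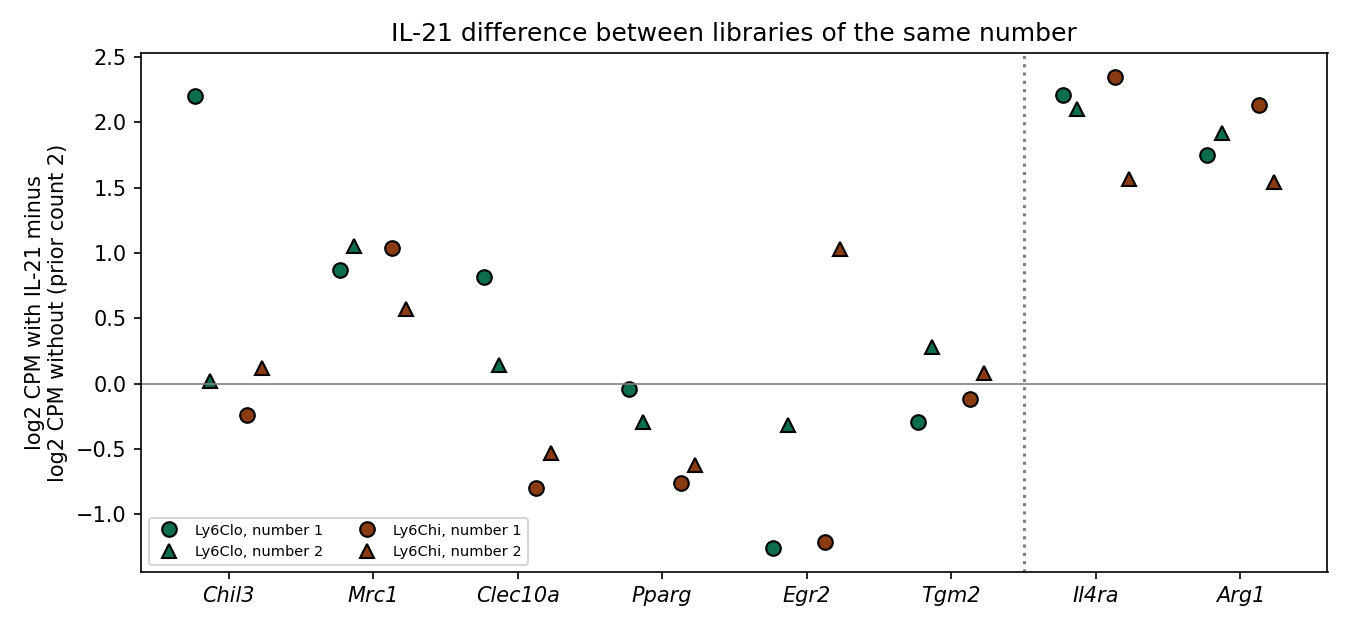
Difference in log2 CPM (prior count 2) between the library with IL-21 and the library without it that share a subset and a number, for the 6 tested genes and, right of the dotted line, Il4ra and Arg1. Mrc1 lies at 0.57 to 1.05, Il4ra and Arg1 lie above 1.5 in all 4 pairs, and Clec10a lies above 0 in Ly6Clo (green) and below 0 in Ly6Chi (brown).

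In Ly6Chi, Clec10a and Pparg had lower values in both libraries with IL-21 than in both without, and neither passed the test. Clec10a, which encodes the galactose-binding lectin MGL1 (ENSMUSG00000000318, chromosome 11, 70156197 to 70170834, plus strand), had 63.9 and 37.0 CPM in Ly6Clo with IL-21, against 33.2 and 32.9 CPM in Ly6Clo without. In Ly6Chi it had 30.1 and 34.7 CPM with IL-21, against 57.5 and 53.4 CPM without. The pairs of groups did not overlap in either subset. The stimulated libraries were higher in Ly6Clo, as for 15.0% of all genes, and lower in Ly6Chi, as for 15.7%. Both Ly6Clo libraries numbered 2 had 15 counts, so their difference came from scaling to library size. The log2 fold change was 0.55 (SE 0.42) in Ly6Clo and -0.77 (SE 0.46) in Ly6Chi, with edgeR adjusted p values of 1.0. The difference between these effects was 1.32 (SE 0.62, unadjusted edgeR p 0.0518, adjusted p 0.999), which did not pass. Of the 5257 genes 0 (0.0%) passed for such a difference by edgeR and 0 by DESeq2, with 92 genes at an unadjusted edgeR p under 0.05. Clec10a shares 15.6% of the 50-base runs in the last 500 bases of its transcripts with Mgl2.

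Pparg (ENSMUSG00000000440, chromosome 6, 115360951 to 115490399, plus strand) had 24.0 and 22.2 CPM in Ly6Clo with IL-21, against 24.9 and 28.5 CPM in Ly6Clo without. In Ly6Chi it had 26.4 and 29.8 CPM with IL-21, against 49.3 and 49.6 CPM without. The Ly6Chi libraries without IL-21 were thus the highest, and all other libraries lay between 22.2 and 29.8 CPM. IL-21 went with lower values in 4 of 4 pairs, as for 9.02% of all genes, and the log2 fold change was -0.24 (SE 0.53) in Ly6Clo, -0.82 (SE 0.52) in Ly6Chi and -0.53 (SE 0.37) averaged, all at an edgeR adjusted p of 1.0. These values rest on 6 to 13 counts per library, and an antisense gene, Gm44079, overlaps Pparg, from which its reads cannot be separated unless strand was used. Of 10 dendritic cell markers 8 were counted, with a sum of 44.7 to 71.5 CPM in the libraries with IL-21 and 123 to 215 CPM in those without, while Cd209a and Clec9a were listed at 0. Cd24a, a surface protein not limited to dendritic cells, had 19.7 to 48.0 CPM with IL-21 and 26.3 to 57.5 CPM without. Fscn1, which encodes the actin-bundling protein fascin, had 0 to 22.2 CPM with IL-21 and 41.5 to 90.0 CPM without, and the chemokine receptor gene Ccr7 had 0 to 14.8 CPM with IL-21 and 15.3 to 63.6 CPM without. Zbtb46 went the other way in Ly6Clo, at 7.99 and 4.93 CPM with IL-21 and 4.15 and 4.39 CPM without. It had at most 2 counts a library and was listed at 0 in Ly6Chi. Itgae had 1 count in all, in a library with IL-21, and Flt3 had at most 2 counts a library, all without IL-21. Clec10a and Pparg are also expressed by dendritic cells, and the part of these cells was not tested.

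Egr2 (ENSMUSG00000037868, chromosome 10, 67535475 to 67542188, plus strand) had 59.9 and 19.7 CPM in Ly6Clo with IL-21, against 154 and 26.3 CPM in Ly6Clo without. In Ly6Chi it had 26.4 and 14.9 CPM with IL-21, against 69.8 and 3.81 CPM without, the last of these from 1 count. The libraries numbered 1 were the higher in each group, and the groups overlapped. The averaged log2 fold change was -0.93 without the block (SE 0.98, edgeR adjusted p 1.0) and with it (SE 0.36, edgeR adjusted p 0.338), and in the number 2 pair of Ly6Chi the difference was above 0, at 1.03.

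Chil3 and Tgm2 had no shared direction with IL-21. For Chil3 the log2 difference within a number was 2.20 and 0.02 in Ly6Clo and -0.24 and 0.12 in Ly6Chi, and the first of these rests on the library with 1 count. Its log2 fold change was 0.94 (SE 0.65) in Ly6Clo, -0.08 (SE 0.44) in Ly6Chi and 0.43 (SE 0.39) averaged, at an edgeR adjusted p of 1.0 each. Leaving out the first unstimulated Ly6Clo library gave 0.43 in Ly6Clo and 0.17 averaged, and leaving out the second gave 2.85 and 1.38, none of them called. Tgm2, which encodes the protein-crosslinking enzyme transglutaminase 2 (ENSMUSG00000037820, chromosome 2, 158116402 to 158146436, minus strand), had the narrowest relative range of the 6, 68.0 to 99.6 CPM. Its level was 79.9 and 83.8 CPM in Ly6Clo with IL-21 and 99.6 and 68.0 CPM in Ly6Clo without, and 90.3 and 89.3 CPM in Ly6Chi with IL-21 and 98.5 and 83.9 CPM in Ly6Chi without. Its averaged SE was 0.24 on the log2 scale, and the sign of its averaged IL-21 value changed between settings. Rprd1b and Gm20412 overlap Tgm2 on the opposite strand, so its counts are uncertain unless strand was used.

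**Figure D4:**
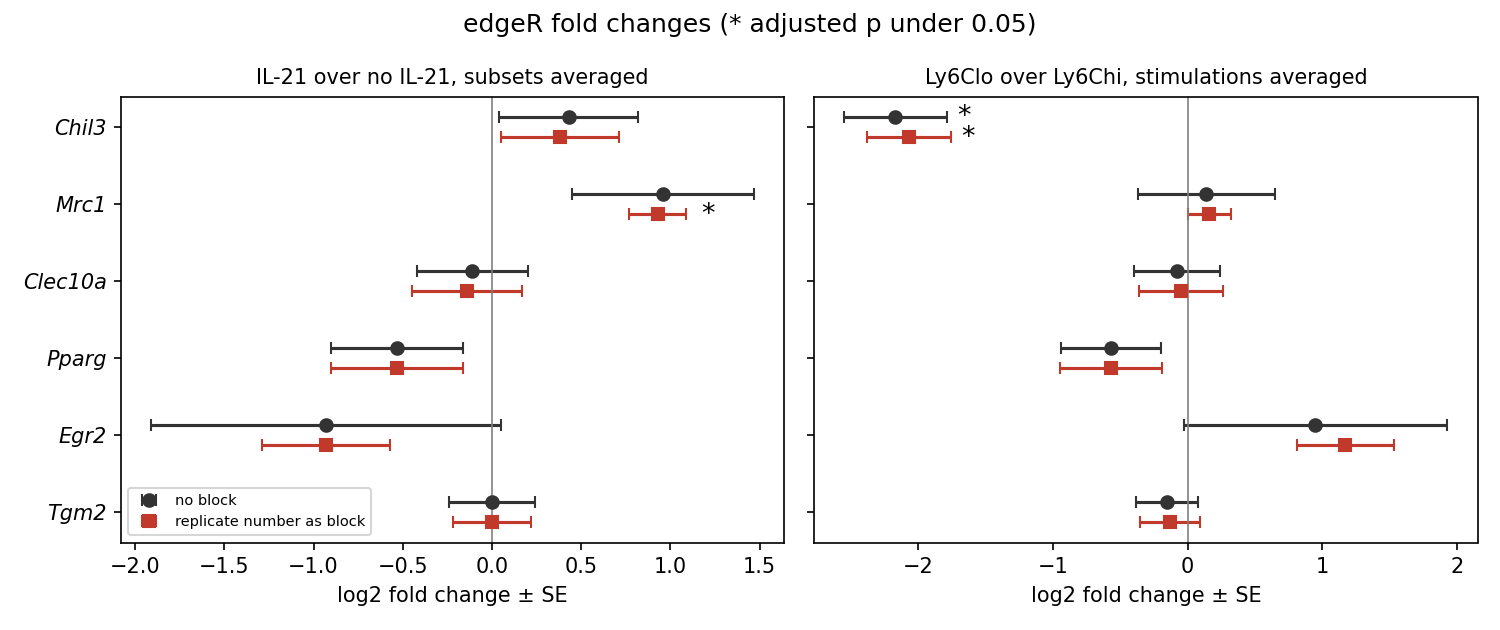
Log2 fold changes with their SE from edgeR for the 6 tested genes, IL-21 over no IL-21 on the left and Ly6Clo over Ly6Chi on the right, without a block (black circles) and with a block for the replicate number (red squares). Stars mark an adjusted p under 0.05, which Chil3 reached in both fits on the right and Mrc1 in the block fit on the left.

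Transcripts of IL-4 and STAT6 pathway genes were counted in the same libraries, and the activity of the pathway was not measured. Of 12 receptor, kinase and STAT6 genes 7 were tested, and 1, Il4ra, rose with IL-21 in the averaged comparison. Il4ra, the receptor chain that IL-4 and interleukin 13 share, had 372 and 606 CPM in Ly6Clo with IL-21 against 74.7 and 136 CPM without. In Ly6Chi it had 384 and 521 CPM with IL-21 against 69.8 and 172 CPM without. An antisense gene, Gm44876, overlaps Il4ra, so these counts are uncertain unless strand was used. Il4ra was thus higher with IL-21 in 4 of 4 pairs of one number, as were 9.89% of all genes. The averaged log2 fold change was 2.03 (SE 0.29, edgeR adjusted p 0.0189), where 0.171% of all genes passed. Il4ra was also higher in number 2 than in number 1, by 0.72 (SE 0.15, edgeR adjusted p 0.00259), and 8.24% of all genes differed between the numbers. The averaged call was lost without the first (2.13, edgeR adjusted p 0.0584) or second (1.92, 0.0739) Ly6Chi library with IL-21. In Ly6Clo alone the Il4ra value was 2.17 (SE 0.40, edgeR adjusted p 0.158), and 2.20 in the block fit (SE 0.21, edgeR adjusted p 2.1e-07; 0.514% of all genes passed as higher). In Ly6Chi alone it was 1.89 (SE 0.42, edgeR adjusted p 0.799), and 1.94 in the block fit (SE 0.23, edgeR adjusted p 1.28e-05; 0.247% of all genes passed as higher). Stat6, which overlaps Nab2 on the opposite strand and is uncertain, had an averaged log2 fold change of 0.02 (SE 0.24, edgeR adjusted p 1.0). Of 15 nuclear factors and feedback inhibitors, which include Pparg and Egr2, 5 were tested and 0 passed in that comparison, with 1 at an unadjusted p under 0.05 (Cebpb, 0.47, SE 0.19).

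Of 32 other IL-4 response genes 13 were tested, and 1, Arg1, rose. Arg1, the arginine-degrading enzyme arginase 1, had 2030 and 2350 CPM in Ly6Clo with IL-21 against 598 and 617 CPM without, and 1820 and 1740 CPM in Ly6Chi with IL-21 against 411 and 595 CPM without. Its averaged log2 fold change was 1.84 (SE 0.16, edgeR adjusted p 6.63e-05). Fabp4, a fatty acid carrier (0.73, SE 0.16, edgeR adjusted p 0.145), Cd300ld, an immune receptor (0.52, SE 0.18, adjusted p 0.703), and Clec7a, the beta-glucan receptor Dectin-1 (-0.88, SE 0.31, adjusted p 0.765), had the next smallest p values and did not pass. With the block, Fabp4 and the chemokine gene Ccl8 (1.72, SE 0.18, edgeR adjusted p 3.15e-07) rose and Clec7a fell. In that fit 0.989% of all genes passed as higher and 8 of the 5257 genes as lower. The median averaged log2 fold change was -0.06 over the 6 tested markers, 0.02 over the receptor list, -0.02 over the nuclear factors and 0.12 over the other response genes, against -0.01 over all genes tested. Between the subsets Fabp4 was the 1 pathway gene called, higher in Ly6Clo by 0.87 (SE 0.16, edgeR adjusted p 0.0351), while Chil3 was lower, and 0.0951% of all genes passed as higher. This call was lost in each of the 8 fits that left out 1 library, at 0.82 to 0.92 with edgeR adjusted p values of 0.057 to 0.209, and by DESeq2 (adjusted p 0.0838). In the block fit, where 1.12% of all genes passed as higher, 6 of the 13 other response genes passed as higher in Ly6Clo. Beside Fabp4 (0.88, SE 0.13, edgeR adjusted p 0.000131) these were Mmp12, the macrophage elastase (1.13, SE 0.18, adjusted p 0.000429), Tfrc, the transferrin receptor (0.74, SE 0.16, adjusted p 0.0085), Cd36, a scavenger receptor (0.52, SE 0.13, adjusted p 0.0223), Ccl8 (0.70, SE 0.18, adjusted p 0.0292) and Trem2, a lipid-binding receptor (0.57, SE 0.15, adjusted p 0.0364). Cebpb, which encodes a transcription factor that acts on Arg1, was lower in Ly6Clo in that fit (-0.73, SE 0.14, edgeR adjusted p 0.00177), as were 1.41% of all genes. Mmp12 (1.03, SE 0.67, edgeR adjusted p 0.789), Tfrc (0.64, SE 0.74, adjusted p 0.909) and Ccl8 (0.74, SE 0.58, adjusted p 0.833) did not pass without the block. Number 2 was lower than number 1 for Mmp12 (-1.41, edgeR adjusted p 5.95e-06) and Tfrc (-1.67, adjusted p 7.17e-08), and higher for Ccl8 (1.34, adjusted p 6.24e-06). Without the block the log2 fold change was above 0 for 11 of the 13 response genes, against 2648 of the 5257 genes tested. The median was 0.52 over the response genes, against 0.0 over all genes tested.

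Chil3 and Mrc1 did not follow each other across the 8 libraries. Among genes with a mean of at least 50 counts, those whose log2 CPM was most like that of Chil3 included Nfkbia (Pearson r 0.947), Parp14 (0.917), Sod2 (0.905) and Igsf6 (0.898). Those most like Mrc1 were Fcgr3 (0.979), Serp1 (0.97), Eif4g3 (0.935), Lrp1 and Ccl6 (0.922 each), and r between Chil3 and Mrc1 was 0.083. These are descriptions over 8 libraries that share their groups, numbers and depth, taken from the highest among 1149 genes for Chil3 and 1148 for Mrc1.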

How the data were processed

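Messenger RNA 3′ ends were read from 8 libraries made with a QuantSeq forward kit and its module for unique molecular identifiers, as the labels' protocols state. Expected counts per Ensembl gene were deposited, which need not be whole and which the file headers call raw. Per the submitters' processing notes, mm10 and DESeq2 were used, with no version recorded. For the aligner, the counter and the use of identifiers and strand, the entry is: not given in the sources used here. If identifiers were not used, counts include amplified copies, so count-based limits cover only counting error.

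Values were rounded to whole numbers. Symbols and positions came from GENCODE M21 (GRCm38), which matched 53237 of 53342 identifiers, and promoters from RefSeq (GRCm38.p6). filterByExpr (minimum count 10, minimum total 15) kept 5257 genes. They were fitted in edgeR 4.0.16 (limma 3.58.1, R 4.3.3) with TMM, 4 group means and the robust quasi-likelihood test, with 4 residual degrees of freedom (prior median 10.7, common biological coefficient of variation 0.201). The p values were adjusted by Benjamini-Hochberg across the 5257 genes, with calls under 0.05. CPM were computed on TMM-scaled totals over the 5257 genes. Log2 differences within a number use a prior count of 2. The fit was tested on simulated data.

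Replicate numbers come from the sample titles. Deviations of libraries with the same number from their group means correlated in all 6 pairs of groups (Pearson r 0.235 to 0.412 over 5257 genes), so the numbers were taken to pair the libraries, and the fit with the number as a block is printed where it changes a call of the 10 genes or of Il4ra, and for other pathway genes in the averaged comparisons. Alternatives were DESeq2 1.42.0, its size factors in edgeR, no filter, unrounded values, the block and leaving out each library. The block combined with no filter or with a library left out, and number 2 against number 1, were added after seeing the data.

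All 10 genes are named, with pathway genes called in any comparison without the block, Il4ra, Stat6, Irf4, Mgl2, Chil4, Arg1 and the 3 smallest p values. Ccl8, Cebpb, Mmp12, Tfrc, Cd36, Trem2 and the markers Mmp8, Lyz2, Fcgr1, Ccr2, Plac8, Vcan, Cd24a, Fscn1 and Ccr7 are outside this rule, chosen with their values known. The genes and lists were chosen with earlier results of these data known. A gene among those most like Chil3 across the libraries is not reported here.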

Additional observations from a re-analysis of the deposited data

Results flagged for a closer look

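The IL-21 effect on Clec10a had opposite signs in the subsets. It was above 0 in both Ly6Clo pairs of one number (0.82 and 0.14 on the log2 scale) and below 0 in both Ly6Chi pairs (-0.80 and -0.53). The value of 0.82 rests on 16 against 8 counts. The value of 0.14 rests on 15 counts in each library and came from scaling to library size. The effect in Ly6Clo minus that in Ly6Chi was 1.32 (SE 0.62), and the test of this difference did not pass (unadjusted edgeR p 0.0518, adjusted p 0.999). With the number as a block the difference was 1.31 (SE 0.61, edgeR adjusted p 1.0).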

How the results depend on the processing

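DESeq2, its size factors in edgeR and unrounded values changed no call among the 10 genes, and without a filter on low counts Chil3 passed for Ly6Clo against Ly6Chi without IL-21, 1 gene against 0. With the replicate block 1 of the 10 genes passed where 0 did without it, Mrc1 for IL-21 in Ly6Clo (0.98) and averaged (0.93) and Chil3 for Ly6Clo against Ly6Chi without IL-21 (-2.55), and the block changed no other call among them. The block and no filter together gave the same counts of 1 in these 3 comparisons and 1 for Ly6Clo against Ly6Chi with IL-21. Tgm2 changed sign for IL-21 in Ly6Clo with DESeq2 (-0.0087), and averaged with the block (0.0033), with unrounded values (0.0047) and with the block and no filter (0.0056). The number of all genes called for IL-21 in Ly6Chi, in Ly6Clo and averaged was 1, 7 and 9, against 14, 29 and 60 with the block and 8, 16 and 35 without a filter. For Ly6Clo against Ly6Chi without IL-21, with it and averaged it was 2, 1 and 10, against 31, 41 and 133 with the block and 16, 22 and 58 without a filter. For the difference of the IL-21 effects it was 0, against 1 in each of these 2 fits, and unrounded values gave 3 in place of 7 in Ly6Clo.

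Leaving out 1 library in turn, the count of the 10 genes called for Ly6Clo against Ly6Chi averaged was 0 to 1. Log2 fold changes that changed sign in such fits, none of them called, ranged as follows. For IL-21 in Ly6Chi they were -0.14 to 0.10 for Tgm2, -0.52 to 0.52 for Chil3 and -1.70 to 2.36 for Egr2. For IL-21 in Ly6Clo they were -0.27 to 0.27 for Tgm2 and -2.06 to 0.47 for Egr2. Averaged over the subsets they were -0.15 to 0.12 for Tgm2, -1.41 to 0.62 for Egr2 and -0.31 to 0.084 for Clec10a. For the difference of the IL-21 effects they were -0.71 to 0.95 for Mrc1, -0.26 to 0.29 for Tgm2 and -3.49 to 1.22 for Egr2. For Ly6Clo against Ly6Chi without IL-21 they were -0.79 to 0.77 for Mrc1, -0.42 to 0.13 for Tgm2 and -0.45 to 4.26 for Egr2, and with IL-21 -0.60 to 0.89 for Mrc1 and -0.11 to 1.47 for Egr2. Averaged between the subsets they were -0.31 to 0.50 for Mrc1, -0.28 to 0.00087 for Tgm2 and -0.27 to 0.12 for Clec10a. The cause was not tested. With 2 libraries a group, a fit that left 1 out assumes that the remaining library varies like the other groups, and 6 to 16 counts a library for Clec10a and Pparg limit what could be detected.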
